A study of Mus musculus with 2 samples.

Results

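The Rab genes are the largest branch of the Ras superfamily of small GTPases. They were taken here as the protein-coding genes of the GENCODE mm10 annotation whose symbol starts with Rab followed by a digit. That rule found 69 of 21938 protein-coding genes. Of these, 59 encode Rab GTPases and 9 encode regulators or effectors named after a Rab (Rab3gap1, Rab3gap2, Rab3ip, Rab3il1 and Rab11fip1 to Rab11fip5). The other member, Rab5if, encodes a Rab5-interacting factor and was given no role. The rule used names only, so no value chose the members.

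The data were DNase-seq of frontal cortex from 25 day old female B6CASTF1/J mice, the F1 hybrids of C57BL/6J and CAST/EiJ. DNase I cuts DNA that nucleosomes leave exposed, so dense cutting marks open chromatin, and short protected stretches inside it, called footprints, mark DNA covered by bound protein. There was 1 group of 2 libraries, replicate 1 and replicate 2, made from nuclei of whole tissue, with no second condition. The labels give both libraries the same donor identifier, so their spread (SD, n = 2) may be technical, and no test between groups was possible.

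A Rab protein switches between a GDP-bound form held in the cytosol and a GTP-bound form anchored in a membrane by prenyl groups. Exchange factors switch it on, GTPase activating proteins switch it off, and effectors such as tethers and motors read the active form. Each Rab marks a particular membrane, and in neurons Rabs direct synaptic vesicle release, receptor recycling, axonal transport and neurite growth.

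Both peak lists were similar in size, with 85603 peaks in replicate 1 and 87847 in replicate 2. A peak's value is the authors' read-depth normalized signal, with a median of 0.627 and 0.679 in the respective libraries. The reads behind each value were not given in the files, so depth is unknown. Marker genes of every cell class tried had open promoters in part. Those open in both libraries were 10 of 10 for neurons, 6 of 9 for inhibitory neurons, 5 of 8 for astrocytes, 4 of 9 for the oligodendrocyte lineage, 3 of 8 for microglia, 3 of 8 for endothelial and mural cells and 1 of 8 for liver. The shares of other genes with the same CpG content were 65.3%, 65.1%, 54.2%, 51.8%, 28.4%, 63.3% and 27.2% in that order. Tissue values mix cell types, and fewer cells with an open site cannot be told apart from a less open site in each cell.

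The sequences of 8 promoter and distal sites described further on are given here on mm10 in the direction of the Rab gene, with bases under a footprint in both libraries in capitals. The first 3 are promoter peaks, shown up to the first annotated exon. Rab3a (chr8:70754421-70754678, plus strand) is the best known synaptic vesicle Rab, Rab10 (chr12:3309970-3310260, minus strand) differed most between libraries among strong promoters, and Rab5a (chr17:53478961-53479233, plus strand) held a cAMP response element under a footprint.
Rab3a promoter: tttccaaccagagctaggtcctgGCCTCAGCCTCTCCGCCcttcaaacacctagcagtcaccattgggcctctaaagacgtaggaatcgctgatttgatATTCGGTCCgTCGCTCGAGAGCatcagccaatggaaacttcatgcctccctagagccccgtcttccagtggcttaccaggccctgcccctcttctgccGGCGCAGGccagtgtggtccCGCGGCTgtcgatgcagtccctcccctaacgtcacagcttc
Rab10 promoter: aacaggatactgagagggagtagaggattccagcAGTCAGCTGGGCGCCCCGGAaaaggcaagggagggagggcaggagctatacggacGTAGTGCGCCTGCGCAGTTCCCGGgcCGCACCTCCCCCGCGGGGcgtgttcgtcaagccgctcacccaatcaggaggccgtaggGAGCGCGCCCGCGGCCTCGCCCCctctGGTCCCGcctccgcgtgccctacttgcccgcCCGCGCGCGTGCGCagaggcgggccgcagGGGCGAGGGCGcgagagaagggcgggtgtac
Rab5a promoter: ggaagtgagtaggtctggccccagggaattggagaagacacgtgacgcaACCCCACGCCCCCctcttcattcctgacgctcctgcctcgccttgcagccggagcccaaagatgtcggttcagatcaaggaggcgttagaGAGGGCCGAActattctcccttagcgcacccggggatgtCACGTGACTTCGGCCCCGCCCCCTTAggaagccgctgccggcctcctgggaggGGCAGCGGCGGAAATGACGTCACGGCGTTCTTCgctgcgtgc
The other 5 are regions away from any coding promoter that were called in both libraries. Of the Rab3a pair, the nearer lies at chr8:70753221-70753500 and the farther at chr8:70752081-70752280. The Rab3b site (chr4:108870061-108870280, plus strand), the Rab17 site (chr1:90973321-90973540, minus strand) and the Rab1b site (chr19:5094341-5094520, minus strand) are among the 5 strongest distal regions of the family.
Rab3a upstream 1318 bp: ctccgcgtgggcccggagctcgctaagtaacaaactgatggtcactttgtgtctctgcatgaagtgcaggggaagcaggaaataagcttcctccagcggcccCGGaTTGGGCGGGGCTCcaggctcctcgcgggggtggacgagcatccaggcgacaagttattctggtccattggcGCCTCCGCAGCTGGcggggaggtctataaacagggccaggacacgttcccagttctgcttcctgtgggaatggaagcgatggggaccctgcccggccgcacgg
Rab3a upstream 2498 bp: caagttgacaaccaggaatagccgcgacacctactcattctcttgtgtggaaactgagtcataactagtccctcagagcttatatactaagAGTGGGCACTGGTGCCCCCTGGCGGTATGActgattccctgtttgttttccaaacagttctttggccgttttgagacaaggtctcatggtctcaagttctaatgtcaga
Rab3b upstream 8892 bp: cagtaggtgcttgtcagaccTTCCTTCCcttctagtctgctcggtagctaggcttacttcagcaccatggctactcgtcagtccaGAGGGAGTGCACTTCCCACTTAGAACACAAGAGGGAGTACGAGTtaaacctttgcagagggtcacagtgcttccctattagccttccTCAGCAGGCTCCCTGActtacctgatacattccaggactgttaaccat
Rab17 upstream 3770 bp: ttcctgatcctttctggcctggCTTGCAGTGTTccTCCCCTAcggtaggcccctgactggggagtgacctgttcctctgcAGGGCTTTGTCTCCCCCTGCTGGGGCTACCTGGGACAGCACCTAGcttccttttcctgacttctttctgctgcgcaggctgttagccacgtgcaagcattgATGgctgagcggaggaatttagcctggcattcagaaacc
Rab1b downstream 12641 bp: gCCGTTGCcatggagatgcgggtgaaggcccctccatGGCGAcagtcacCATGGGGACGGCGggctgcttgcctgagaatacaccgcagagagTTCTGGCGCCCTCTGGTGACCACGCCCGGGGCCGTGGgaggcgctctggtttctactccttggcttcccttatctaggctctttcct

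Most Rab genes had an open promoter. A promoter peak, overlapping the 1 kb on either side of any annotated transcription start site (TSS), was called in both libraries for 63 of 69 members (91.3%, exact Clopper-Pearson 95% interval 82.0% to 96.7%, covering counting error over genes only). Over all protein-coding genes 61.5% had one in both libraries, the background for this count, and 61.4% of the 21869 genes outside the family. Rab promoters are rich in CpG dinucleotides, which accompany open promoters in most tissues, with a median of 62 CpG in the 1 kb around the 5′ end against 41 in other genes. When other genes were weighted to the members' CpG content in 10 bins, 82.4% were open in both libraries. This share lay just inside the lower end of the members' interval, which is not a test. It stayed inside with 20 bins (82.9%) or with the peak centre required inside the promoter (82.1%). With promoters of 500 bp on each side it was 80.9%, below the interval. The count of members was 63 in each of these settings. Of the 53 members in the 5 bins richest in CpG, 52 were open (98.1%), against 92.3% of other genes weighted to the same bins. Of the 16 in the 5 poorest bins, 11 were open (68.8%), against 49.8% weighted in the same way. CpG was counted around the 5′ end, whereas a peak at any TSS made a gene open. With the 5′ end alone counted, 59 members (85.5%) were open, against 79.6% of other genes weighted to the members' CpG content.

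**Figure D1:**
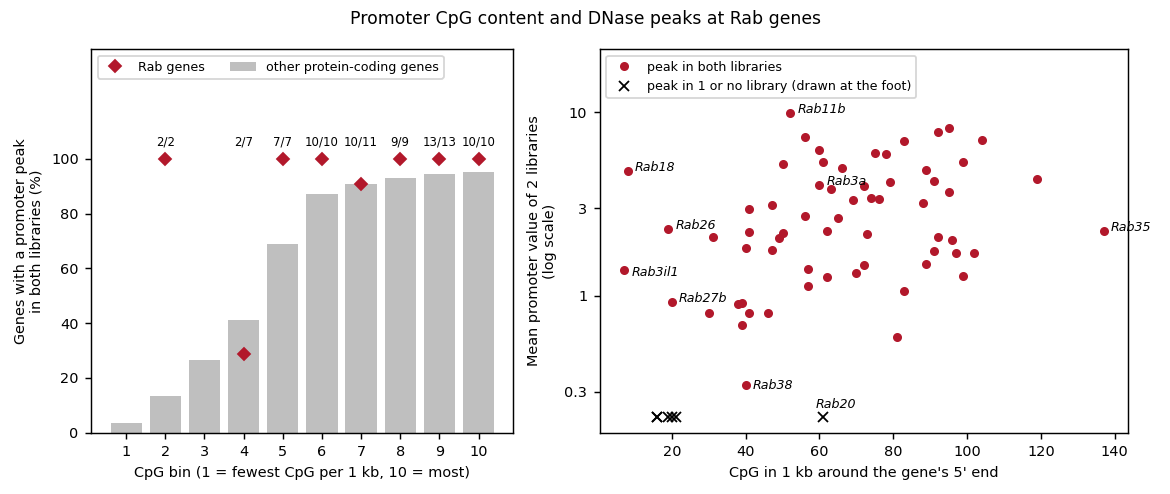
Left, the share of genes whose promoter held a peak in each library (%) by CpG bin, bars for other protein-coding genes and diamonds for Rab genes, with the number open over the number in the bin above. Right, the mean promoter value of 2 libraries (log scale) against CpG in the 1 kb around the 5′ end of each Rab gene, one point a gene, with crosses at the foot for members lacking a peak in 1 or both libraries. In bin 4, with 16 to 25 CpG, 2 of 7 members were open, and Rab20 was the one CpG-rich member not open in both.

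A promoter peak was lacking in 1 or both libraries in 6 members. Rab7b, Rab17, Rab19 and Rab25 had none in either. Rab17 and Rab25 are known from polarised epithelia, where they act in recycling to the cell surface, and Rab7b from endosome to Golgi transport. The TSS nearest to a peak lay 3375 bp away at Rab19 in both libraries, 3680 bp and 3660 bp away at Rab17, 4601 bp and 4621 bp away at Rab25, and 11873 bp and 15883 bp away at Rab7b. Rab20, an endosomal Rab studied in macrophages and epithelia, had a peak of 0.458 in replicate 1 and none in replicate 2. Rab44, a long Rab known from mast cells and osteoclasts, had none in replicate 1 and one of 0.777 in replicate 2. Of these members, all but Rab20, which has 61 CpG, had 16 to 21 CpG, within the fourth CpG bin (16 to 25 CpG). The members of that bin with a peak in both libraries were Rab26, with 19 CpG, and Rab27b, with 20, both vesicle release Rabs. Among other genes of the bin 41.0% were open.

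Split by where the literature places them, 9 of 9 members known as mainly neuronal or neuroendocrine (Rab3a, Rab3b, Rab3c, Rab6b, Rab15, Rab26, Rab27b, Rab33a and Rab39b) were open in both libraries, where 74.5% of genes with the same CpG content were. Of 11 known mainly from epithelia, pigment cells, blood or secretory glands, 5 were open (Rab3d, Rab27a, Rab32, Rab37 and Rab38), where 61.9% of genes with their CpG content were. Rab7b, Rab17, Rab19, Rab20, Rab25 and Rab44 made up the rest of this class. They are all the members of the family that were not open in both libraries. The classes follow general knowledge but, like the other lists here, cannot be taken as chosen without sight of these values. This split is therefore a description only, and no support for a difference between the classes. Being open did not go with a high value in the neuronal class. Its median promoter value was 1.06, against 1.82 for the 5 open members of the other class and 2.26 for all 63 open members.

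The value of a promoter was taken as that of its strongest peak. Over the 63 open members it had a median of 2.26 and ran from 0.326 at Rab38 to 9.90 at Rab11b. Open genes outside the family had a median of 2.34, or 2.43 when weighted to the same CpG bins, and 32 of the 63 members lay above the median of their own bin. Values of open Rab promoters thus lay near the middle of those of other promoters with like CpG content.

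**Figure D2:**
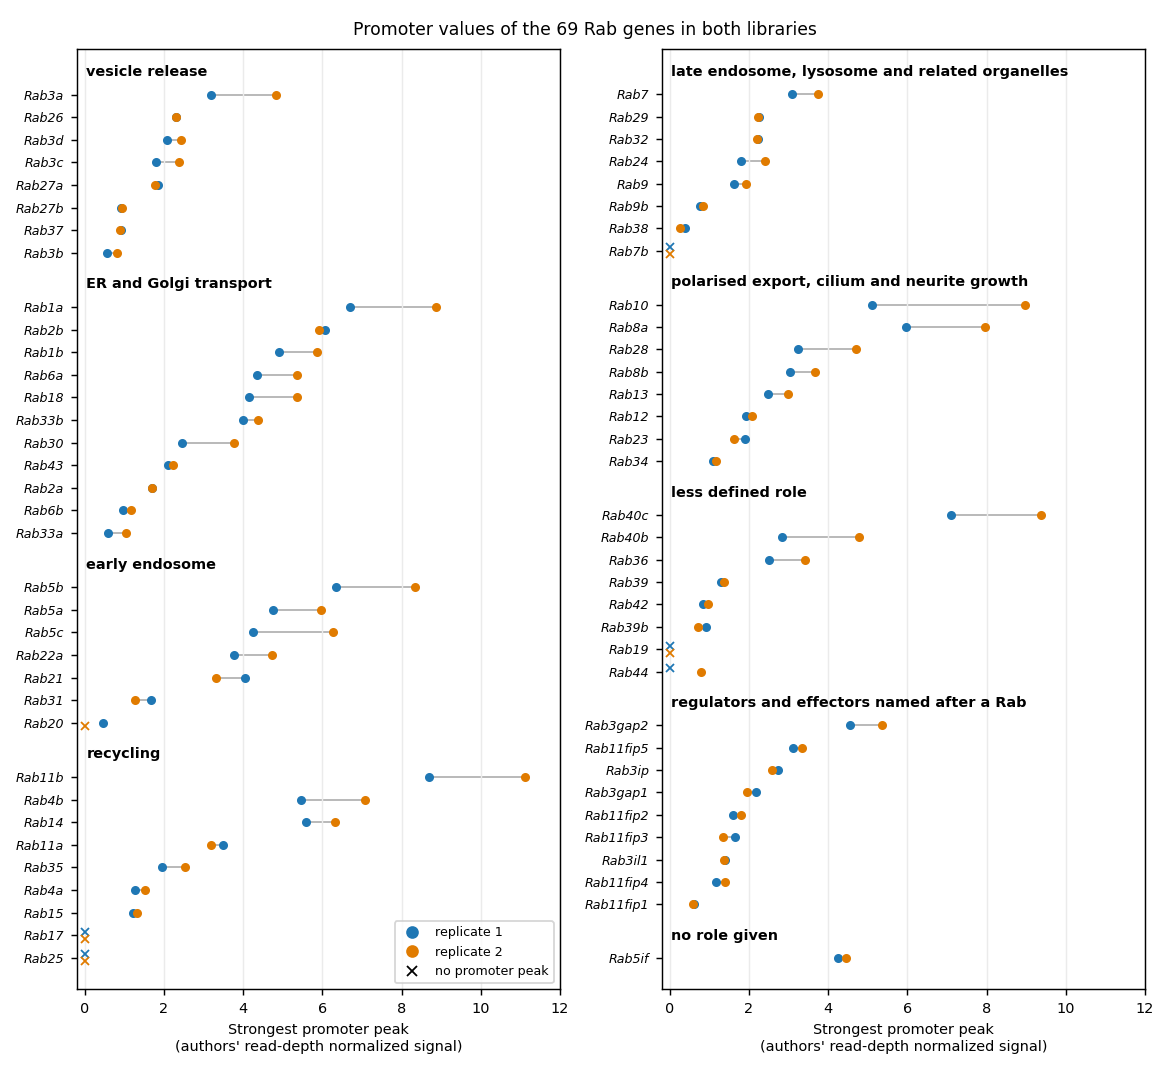
The value of the strongest promoter peak (authors' read-depth normalized signal) for each of the 69 members in replicate 1 (blue) and replicate 2 (orange), by role and ordered by mean, with a cross where no promoter peak was called. Rab11b at 8.69 and 11.1 was highest, and the vesicle release Rabs all lay below 5.

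Vesicle release Rabs were open in 8 of 8 cases, against 67.4% of genes with the same CpG content. Their median value was 1.95, with a median of 39 CpG. Rab3a, which docks synaptic vesicles at the active zone, had promoter values of 3.18 and 4.83 in replicates 1 and 2 (mean 4.01 ± 1.17, SD, n = 2). Its paralogs were lower. Rab3c, also of synaptic vesicles, stood at 1.80 and 2.39, and Rab3d, best known from exocrine granules, at 2.07 and 2.44. Rab3b, of the brain and pituitary, stood at 0.571 and 0.817. The ranges of Rab3c and Rab3d over the libraries overlapped each other, and none of the 3 overlapped Rab3a. Rab26, which acts in secretory granule maturation and in the turnover of synaptic vesicles, had almost the same value in both libraries, 2.30 and 2.31. Rab27a, which carries melanosomes and secretory granules, was at 1.86 and 1.77. Its paralog Rab27b, of secretory vesicles in neurons and endocrine cells, was lower at 0.921 and 0.936, next to Rab37, of mast cell granules, at 0.927 and 0.896. The ranges of these last 2 overlapped.

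Of the ER and Golgi Rabs all 11 were open, against 85.3% of genes with the same CpG content. Their median was 4.18. Rab1a, needed for transport from the ER to the Golgi, reached 6.69 and 8.87 (mean 7.78 ± 1.54, SD, n = 2), above 99.2% of open genes outside the family in its CpG bin. Rab2b, of the Golgi, followed at 6.06 and 5.93, from a peak shared with the divergent gene Tox4. Rab1b stood at 4.90 and 5.86. The lowest were Rab6b, the neuronal paralog of the Golgi Rab Rab6a, at 0.961 and 1.16, and X-linked Rab33a, of brain and immune cells, at 0.588 and 1.03. Rab6a itself, whose peak is shared with Mrpl48, was at 4.36 and 5.37, well clear of Rab6b in both libraries.

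Early endosome Rabs had the highest median of the role groups, 4.75. Of these 6 of 7 were open, against 92.4% of genes with the same CpG content. The 3 Rab5 paralogs, which drive early endosome fusion, led them. Rab5b was at 6.35 and 8.34 (mean 7.34 ± 1.40, SD, n = 2), Rab5a at 4.75 and 5.97, and Rab5c at 4.25 and 6.26. The ranges of Rab5a and Rab5c overlapped, and that of Rab5b lay above both. The lowest open members were Rab21, which traffics integrins, at 4.04 and 3.31, and Rab31, a Rab5 relative of the trans-Golgi and endosomes, at 1.67 and 1.26.

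Recycling Rabs were open in 7 of 9 cases, against 80.5% of genes with the same CpG content. They had a median of 3.34 and held the highest promoter of the family. Rab11b, which returns cargo from recycling endosomes, stood at 8.69 and 11.1 (mean 9.90 ± 1.71, SD, n = 2). No open gene in its CpG bin was higher. Its paralog Rab11a was at 3.49 and 3.20, and Rab25, the third of the Rab11 group, had no promoter peak. Rab4b and Rab14, both of early and recycling endosomes, reached 5.46 and 7.07 and 5.58 and 6.32. The lowest were Rab4a, of fast recycling, at 1.27 and 1.52, and the neuronal Rab15 at 1.21 and 1.33, with overlapping ranges.

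Late endosome and lysosome Rabs were lower, at a median of 2.10. Of these 7 of 8 were open, against 78.6% of genes with the same CpG content. Rab7, which brings late endosomes to lysosomes, was highest at 3.09 and 3.75. Rab29, a partner of the kinase LRRK2, at 2.24 and 2.22, and Rab32, of melanosomes and mitochondria, at 2.22 and 2.20, followed. X-linked Rab9b was at 0.763 and 0.851. Rab38, a pigment cell Rab, had the lowest open promoter of the family at 0.384 and 0.268, above 0.545% of open genes outside the family in its CpG bin, and no promoter peak on the authors' shorter list, where 60 members were open in both libraries against 55.6% of all protein-coding genes.

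Rabs of polarised export, cilia and neurite growth were all open, 8 of 8, against 93.6% of genes with the same CpG content. Their median was 3.04. Rab10, of membrane export in growing axons, was at 5.11 and 8.98 (mean 7.04 ± 2.74, SD, n = 2), and Rab8a, of cilia and surface delivery, at 5.97 and 7.97. Rab28, of cilia and photoreceptors, was at 3.24 and 4.70. The hedgehog and cilium Rabs Rab23 and Rab34 were lowest, at 1.90 and 1.62 and at 1.08 and 1.17. Of the 8 with less defined roles 6 were open, against 75.6% of genes with the same CpG content. The open ones had a median of 2.15. Rab40c and Rab40b, which recruit Cullin5 ubiquitin ligases, were at 7.10 and 9.38 and at 2.84 and 4.78, with Rab36 at 2.51 and 3.42. Rab42 was at 0.848 and 0.965, and Rab39b, an X-linked gene mutated in intellectual disability, at 0.904 and 0.708.

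The 9 regulators and effectors named after a Rab were all open, against 84.5% of genes with the same CpG content. Their median, 1.70, was the lowest of the role groups. Rab3gap2, a subunit of the enzyme complex that switches Rab3 off and Rab18 on, stood at 4.55 and 5.36. Its partner subunit Rab3gap1 was at 2.18 and 1.94, from a different promoter, and the values of these subunits did not overlap. Rab11fip5 was at 3.11 and 3.33 and the exchange factor Rab3ip at 2.73 and 2.59. Rab11fip4, at 1.16 and 1.40, and Rab11fip1, at 0.605 and 0.588, were lowest of these Rab11 adaptors. Rab5if was at 4.24 and 4.46.

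Among genes that act on Rabs but lie outside the family, 73 of 78 (93.6%) were open in both libraries, where 81.7% of genes with the same CpG content were. All 8 genes for prenylation and GDP dissociation inhibition, which load Rabs with lipid and extract them from membranes, were open, as were 19 of 19 GTPase activating proteins. The respective shares of genes with the same CpG content were 83.4% and 81.7%. Tbc1d17, a GTPase activating protein, was highest at 5.56 and 7.82, from a promoter shared with Akt1s1. Of the exchange factors 18 of 19 were open, against 86.5% of genes with the same CpG content. They were led by Mon1b, which activates Rab7, at 5.51 and 5.53, and Rin3 had a peak of 0.412 in replicate 1 only. Effectors were open in 28 of 32 cases, against 78.4% of genes with the same CpG content. Rph3al, Doc2g and Unc13d, effectors or relatives of effectors of Rab3 and Rab27, had no promoter peak in either library, and Sytl4, a Rab27 effector, had one of 0.209 in replicate 1 only.

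Replicate 2 was the higher library at most open members. Over the 63 open members, the log2 of replicate 1 over replicate 2 had a median of -0.23 and an SD of 0.28, against -0.15 and 0.31 over other open genes. Replicate 1 was higher at 17 members (27.0%), against 31.2% of other genes. None of the 63 differed by more than 2-fold, where 0.417% of other open genes did. The largest log2 differences were those of Rab33a and Rab10, both at -0.81, then of Rab40b at -0.75, the Golgi Rab Rab30 at -0.61 (values 2.46 and 3.76) and Rab3a at -0.60. At Rab33a the strongest peak itself differed, centred 638 bp before the 5′ end in replicate 1 and 136 bp after it in replicate 2. At Rab3b it lay 59323 bp after the 5′ end, at an internal TSS, in replicate 1 and 68 bp after it in replicate 2. Such a switch occurred at 6.33% of open genes outside the family.

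In 6 members the strongest promoter peak lay more than 1 kb from the gene's 5′ end in both libraries, at an internal annotated start. They were Rab34 (1031 bp), Rab15 (3777 bp), Rab3il1 (16502 bp), Rab18 (31206 bp), Rab37 (62385 bp) and Rab11fip4 (69389 bp). The share of other open genes with such a distance was not computed, so whether this count is usual is unknown. Rab18, which controls contacts of the ER with lipid droplets, has 8 CpG around its annotated 5′ end and 54 around its open start, where its values were 4.15 and 5.36. With the 5′ end alone counted, Rab15, Rab18, Rab37 and Rab3il1 lost their promoter peak. The open share of genes outside the family fell from 61.4% to 56.6% in the same setting.

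Promoter peaks of the family held a slightly higher median of footprints than those of other genes. The strongest peak had a median of 1.88 footprints per 100 bp in each library, against 1.67 in other open genes and in genes of the same CpG bins. Peak widths had medians of 280 bp and 240 bp in replicates 1 and 2, against 260 bp and 240 bp. Every open member had a footprint in replicate 1, and Rab9b and Rab38, both weak, had none in replicate 2 (3.17%). Among other open genes 1.54% had none in replicate 1 and 2.20% in replicate 2, so the members lay near the general share.

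In the 300 bp centred on the strongest peak, the SP/KLF box GGGCGG was present on either strand in 77.8% of members in replicate 1, against 67.1% of other open genes and 69.4% of those weighted to the same CpG bins. The CTCF core AGGGGGC, which can overlap a GC box, was present in 28.6%, against 17.6% and 17.9%. CCAAT, the NF-Y box, was present in 33.3%, against 37.8%. A match is a run of letters, not a binding site. The extended YY1 site was found in 3 members, Rab14, Rab22a and Rab3gap1 (4.76%, against 1.74%), and the full cAMP response element TGACGTCA in 2, Rab5a and Rab11fip3 (3.17%, against 3.95%). In the Rab5a promoter printed above, TGACGTCA at bases 246 to 253, the E-box CACGTG at bases 179 to 184 and GCCCCCT at bases 196 to 202, counted from the first base printed, lay wholly in capitals. The other E-box of that stretch, at bases 39 to 44, lay outside them. In the Rab10 promoter 7 stretches and 117 of 291 bases were under a footprint in both libraries, and in the Rab3a promoter 5 stretches and 53 of 258 bases.

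Distal peaks were counted in the gene body and the 10 kb on either side, leaving out any peak within 1 kb of a coding TSS. At least 1 was called in both libraries for 42 of 69 members (60.9%), against 52.8% of all protein-coding genes. Members had a median of 2.84 distal peaks per 100 kb, against 1.89 in other genes. Rab genes are longer (median 25.2 kb against 17.4 kb) and richer in CpG, and when each was set beside genes of its own length and CpG bins the median expected density was 2.43, with 36 members above their own matched value and 33 below. The family as a whole therefore did not stand far from genes of like length and CpG content. Merging the libraries gave 196 distal regions, of which 104 (53.1%) were called in both, 38 in replicate 1 only and 54 in replicate 2 only. Without Rab3a, Rab6a, Rab11b and Rab3gap1, picked for the clustered peaks described below, 93 of 153 (60.8%) were called in both. Many regions of these genes were called in 1 library only, so the choice itself raises the share and shows no better agreement. The same share over all distal regions of the libraries was not computed. Of the 104, 51 lay in introns, 5 in exons, 18 in the upstream and 30 in the downstream flank.

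**Figure D3:**
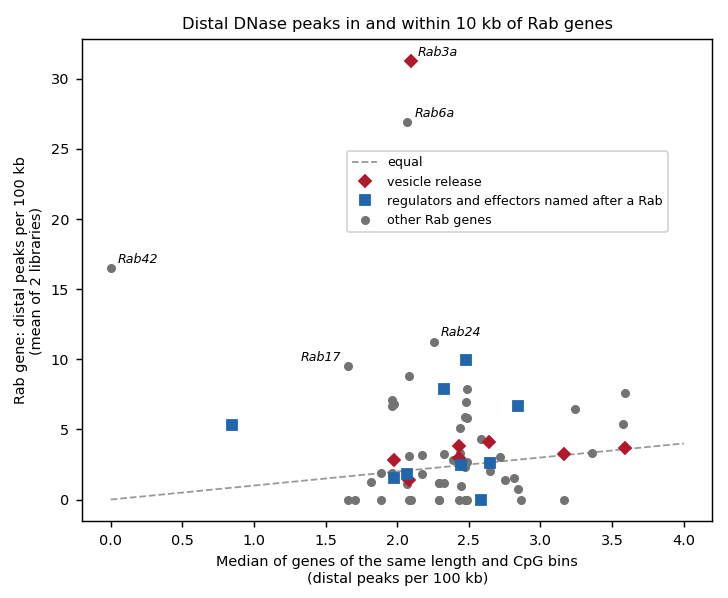
Distal peaks per 100 kb (mean of 2 libraries) of each Rab gene against the median of genes of the same length and CpG bins, one point a gene, with equality dashed. Most members lie near the line or at 0, and Rab3a, Rab6a and Rab42 stand highest.

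The 5 strongest distal regions included 2 near genes with a weak or missing promoter peak. The region upstream of Rab17, at 4.23 and 3.58, was stronger than most open Rab promoters, although Rab17 itself had no promoter peak. The region upstream of Rab3b was at 3.11 and 2.70, above the value of its promoter in both libraries. The highest, 12641 bp from the 5′ end of Rab1b, lies within the neighbouring gene Cnih2, whose product is an AMPA receptor auxiliary subunit, and was at 4.74 and 5.53. The region downstream of Rab11fip4 was at 4.56 and 4.40, and that 5945 bp upstream of Rab24, within Mxd3, at 2.70 and 4.02. A region near a Rab gene was not linked to it by any measurement here.

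Motifs were also looked up in the printed distal sequences. In the farther Rab3a region the only shared footprint covers 30 bases and contains GCCCCCT, the CTCF core on the other strand, at bases 105 to 111. In the nearer one the footprints cover the GC box GGGCGG at bases 109 to 114 and the E-box CAGCTG at bases 185 to 190. The Rab3b region holds the first part of the REST site, TTCAGCACC, at bases 58 to 66, outside its footprints. Another CTCF pattern, CCNNNAGNNGG on either strand, which can miss AGGGGGC and was chosen after the values were seen, lay wholly in capitals in the Rab17 region at bases 93 to 103 and in the farther Rab3a region at bases 106 to 116. It was found in the central 200 bp of 42 of the 104 shared regions (40.4%), against 34.4% of all distal peaks of replicate 1 that overlapped one of replicate 2.

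Most distal peaks were called at Rab6a, with 10 in replicate 1 and 19 in replicate 2, followed by the Rab11 adaptors Rab11fip3 with 10 and 10 and Rab11fip4 with 10 and 10. Rab3a had 6 and 9, and Rab3c, the longest of the Rab3 genes, 6 and 8. The regions of Rab11fip3 were called in both libraries in 10 cases and those of Rab11fip4 in 8. At Rab6a 19 of 20 regions lay downstream, 18 of them within Plekhb1, and 1 lay 6913 bp upstream, within Mrpl48. They were mostly weak, with medians of 0.198 and 0.217 and a highest value of 1.53 and 1.74.

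Rab3a was the member with the highest distal density, 31.3 per 100 kb, and the libraries differed there in where the weak peaks lay. The promoter peak, the upstream regions at 1318 bp (2.21 and 2.14) and 2498 bp (1.78 and 2.19) and a peak inside the first intron were called in both. Positions that the authors' tables list at a false discovery rate of at most 0.05 covered 90.5% of the gene body in replicate 1 and 17.1% in replicate 2. Only 4 protein-coding genes (Klk11, Aspdh, Gm9922 and Rnf223) had a larger difference, and the median over all genes was 0.248 percentage points. In replicate 1 the longest listed block ran from 575 bp before the 5′ end to 3885 bp after it and held 10 peaks. In replicate 2 the longest lay from 4824 bp to 3458 bp before the 5′ end, at the edge of Pde4c, and held 3. Apart from the 2 upstream regions called in both libraries, the distal peaks of replicate 2 were at 0.206 to 0.588.

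**Figure D4:**
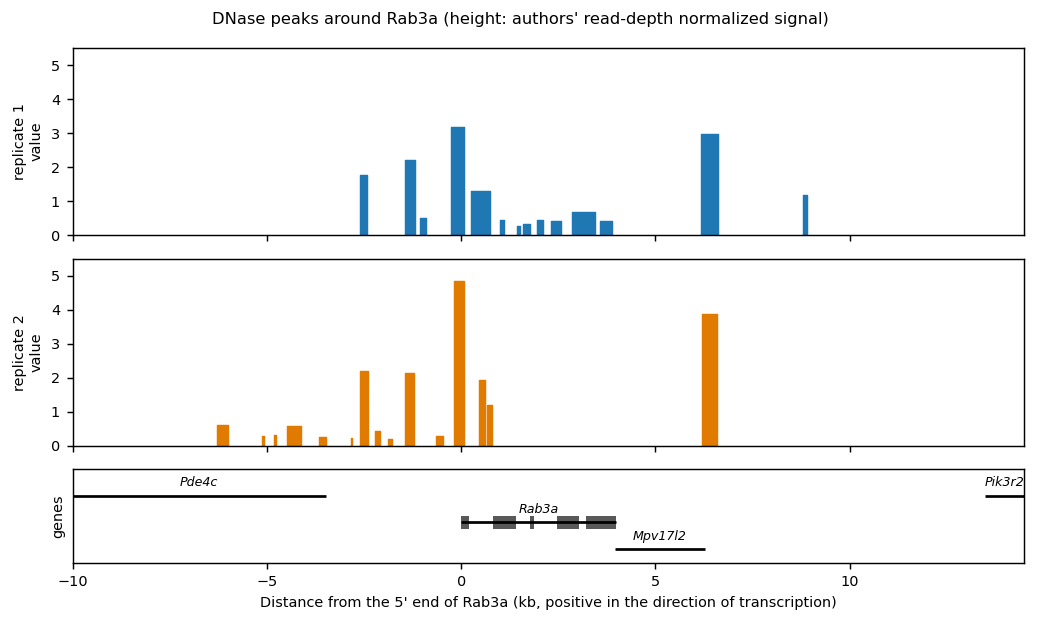
Peaks around Rab3a in replicate 1 (top) and replicate 2 (middle) by distance from its 5′ end (kb), with the height of each box giving the authors' read-depth normalized signal, and genes below (exons of Rab3a as boxes). The promoter peak at 3.18 and 4.83 and the upstream regions appear in both libraries, while weak peaks cover the gene body in replicate 1 and the upstream flank in replicate 2.

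Peaks of 1 library only were also clustered at 2 other members. In replicate 2, 6 weak peaks of 0.074 to 0.166 lay in the downstream flank of Rab11b, and 5 of 0.508 to 1.62 in or after Rab3gap1, and replicate 1 had no distal peak at either gene.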

How the data were processed

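The deposited peak lists give, for each library on mm10, the authors' read-depth normalized signal per peak, of unstated scale. The deposited footprint lists carry a constant score of 0.01, and the authors' cut rate tables give a p-value adjusted as a false discovery rate for positions up to 0.05. Peaks were called per library, per the file headers' lists of source files, and neither caller nor aligner is named in the sources used here. The longer of the 2 peak lists of each library was used. Genes and TSSs came from GENCODE M21 and sequence from the mm10 (GRCm38) reference. Mitochondrial genes were left out.

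Promoters were 1 kb on each side of any TSS, with 1 bp of overlap counting. CpG was counted in 1 kb around the 5′ end and split into 10 bins, and gene length into 10 bins for distal peaks. With 1 group no test was run. Shares, medians and matched values are descriptions. The members followed from the naming rule alone. The role groups, pathway lists and 18 motifs were chosen with earlier results of these data known. The neuronal or other classes cannot be taken as chosen without them. Role groups and neuronal or other classes follow general knowledge of the genes. Named genes were the members lacking a promoter peak, the 3 highest and 2 lowest of each role group, all vesicle release Rabs, the 5 with most distal peaks, the 5 with the strongest distal peak, the 5 with the largest library difference, and, outside the family, the 2 highest genes and those with no peak. Paralogs and members of a class are named beside them. The scripts were tested on simulated data (Python 3.11.15, pysam 0.24.0).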

Additional observations from a re-analysis of the deposited data

How the results depend on the processing

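The count of members with a promoter peak in both libraries ran from 59 to 64 over the settings that kept all 69 members. It was 54 (90%) without the 9 regulators and 53 (89.8%) when Rab5if was also left out. The members' share stayed above the CpG-weighted share of other genes in each setting. With promoters of 500 bp on each side the count was again 63. The CpG-weighted share was then 80.9%, below the members' interval. It was 82.9% with 20 CpG bins and 82.1% with the peak centre required inside the promoter, both inside the interval, with the count again 63. On the shorter list the count was 60, where 55.6% of all genes were open, and Rab37, Rab38 and Rab11fip1 were lost. The median promoter value of 2.26 became 2.48 on the shorter list, 2.66 with only peaks at or above their library's median value, and 2.52 without the 9 regulators, but 2.30 when Rab5if, chosen after seeing the data, was also left out. It ran from 2.23 to 2.43 with either library alone. Footprints per 100 bp, at 1.93 over the mean of both libraries, were 1.85 when only those wholly inside the peak were counted and 1.88 with either library alone. Distal peaks per 100 kb fell from 2.84 to 1.05 without flanks and 0.868 on the shorter list, where the median over other genes was 0 in both cases, and ran from 2.37 to 2.92 with either library alone. The causes of these shifts were not tested beyond what each setting leaves out. The median library difference was also computed on the shorter list, added after seeing the data, at -0.25. No paired analysis was possible because there was only 1 group. Depth was unknown, so which weak peaks are missing from 1 library for lack of reads could not be told.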

Other observations

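The 4 X-linked members, Rab9, Rab9b, Rab33a and Rab39b, were all open in both libraries, as were 59 of 65 on autosomes (90.8%). Among genes outside the family 44.9% were open on the X chromosome and 62.7% on autosomes. The median promoter value of the X-linked members was 0.809, against 2.66 for the 59 open members on autosomes. Open genes outside the family had medians of 1.30 on the X chromosome and 2.38 on autosomes. The members' difference in value thus ran the same way as that of the chromosome, and it was not tested.

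The positions listed at a false discovery rate of at most 0.05 covered a median of 2.44% and 2.32% of the bodies of Rab genes in replicates 1 and 2, against 1.43% and 1.20% over other genes. These other genes were not matched for CpG, length or an open promoter, so the difference is not a trait of the family. Base composition of the 300 bp around the strongest promoter peak was similar, at a median of 66.7% G or C in members and 64.3% in other open genes in replicate 1.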
